A study of Mus musculus with 13 samples.

Results

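The clustered replication-dependent histone genes were taken as the protein-coding genes of the annotation whose symbol begins with Hist1h, Hist2h, Hist3h or Hist4h. This rule gave 67 of 49585 genes, all of them represented in the quantification files. The Hist1 cluster on chromosome 13 held 54 of the genes, Hist2 on chromosome 3 held 10, Hist3 on chromosome 11 held 2, and Hist4 on chromosome 6 held 1. They code for the linker histone H1 (6 genes) and for the core histones H2A (18), H2B (18), H3 (12) and H4 (13). Ovaries of female CD-1 mice at postnatal day 5 (P5) were cultured overnight and exposed to γ-rays, and the oocytes were freed from the ovaries with trypsin and separated from follicular cells by centrifugation. Each time point used 4 ovaries, and cDNA was made with the SMARTER kit. RNA was sequenced from 8 libraries of 0.5 Gy, taken before irradiation (0 h) or at 1 h, 2.5 h, 4 h or 6 h, and from 5 libraries of 0.2 Gy at the same times. The labels assign the 0.5 Gy libraries to a first generation (0, 1 and 4 h) and a second generation (all 5 times). They assign all 0.2 Gy libraries to the third generation, so that dose and generation cannot be told apart in the irradiated libraries. What a generation was, whether a batch or a set of animals, is not given, and the p-values measure only the spread between these libraries.

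Replication-dependent histones package new DNA during S phase, and their genes lie in clusters in which many nearly identical copies are transcribed together. Unlike other mRNAs, theirs as a rule end in a conserved stem-loop and carry no poly(A) tail. The stem-loop is bound by the stem-loop binding protein SLBP, and the end is cut by a complex with the U7 small nuclear RNP, which contains Lsm10 and Lsm11. Replacement histones such as H2A.Z and H3.3 are made outside S phase from polyadenylated mRNAs of single genes. P5 oocytes are arrested in prophase of meiosis I and do not replicate their DNA, and the labelled cells are therefore outside S phase.

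The stem-loop is shown because it defines this class of mRNA. The pattern GGNNCTTTTNAGNGCC was found on the sense strand of the annotated transcripts of 42 of the 67 genes, each time in the 3′ untranslated region, whereas 6 of 56537 protein-coding transcripts of other genes held it (0.0106%). The annotated transcripts of the remaining 25 histone genes did not hold it, which says only that these letters are not in the annotated sequence. The windows below are from the GENCODE transcripts on GRCm38, written 5′ to 3′, with the stem-loop in capitals.
Hist1h1c (chr13:23739507-23739532, plus strand): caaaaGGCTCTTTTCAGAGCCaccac
Hist2h2aa1 (chr3:96246027-96246052, plus strand): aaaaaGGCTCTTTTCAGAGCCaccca
Hist1h3e (chr13:23561898-23561923, minus strand): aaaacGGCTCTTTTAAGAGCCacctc
Hist2h2ac (chr3:96220413-96220438, minus strand): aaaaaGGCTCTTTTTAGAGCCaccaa
Hist1h4d (chr13:23581945-23581970, plus strand): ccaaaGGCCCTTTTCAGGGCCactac
Hist1h4i (chr13:22040961-22040986, minus strand): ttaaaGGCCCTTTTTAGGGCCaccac
The form in Hist1h1c and Hist2h2aa1 was carried by 26 genes of the H1, H2A, H2B and H3 classes, that of Hist1h3e by 6 genes of H1, H2B and H3, and that of Hist2h2ac by this gene alone. The stem of the H4 genes differed, with the form of Hist1h4d in 7 genes and that of Hist1h4i in 2, and neither form was found in another class.

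Within a class the coding sequences share long identical stretches, which bears on how short reads can be assigned. The runs of 30 bases below, the read length given in the labels, are those held by most genes of their class, and no letter in them is singled out.
H2A: gccatccgcaacgacgaggagctcaacaag
H2B: ctggcgcattacaacaagcgctcgaccatc
H3: aagctgccgttccagcgcctggtgcgcgag
H4: aacgtgatccgcgacgccgtcacctacacg
The H2A run was present in 17 of 18 genes and the H2B run in 17 of 18, the exceptions being Hist2h2ab and Hist2h2be. The H3 run was held by 12 of 12 genes and the H4 run by 11 of 13, without Hist2h4 and Hist4h4. No such run was sought for H1, whose genes shared little sequence, with a median of 4.08% of the 30-base stretches of a gene found in any other gene, against 77.4% for H2A, 58.0% for H2B, 63.2% for H3 and 48.4% for H4.

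The promoters of the genes are also alike. RefSeq windows on GRCm38.p6, from 250 bases before to 50 bases after the start, could be matched to 62 of the 67 genes. Read on both strands, CCAAT was found in 85.5% of them against 37.4% of all 32851 promoters, TATAAA in 56.5% against 13.6%, and the octamer ATTTGCAT in 21% against 1.74%. CCAAT was in every window of H1 (6), H2A (18), H2B (16) and H3 (10) but in 3 of 12 of H4. The octamer was found in 7 H2A and 6 H2B windows and in none of the other classes. Some H2A and H2B neighbours on opposite strands have overlapping windows. The octamer of Hist1h2ae and Hist1h2bg, of Hist1h2ah and Hist1h2bk, and of Hist1h2aa and Hist1h2ba is the same site counted in both windows. These shares therefore count windows and not separate promoters. The promoters below belong to the H1 gene with the most reads and to both H4 genes on which the results turn. They show the 250 bases before the start, 5′ to 3′ on the strand of the gene, with CCAAT and TATAAA in either orientation in capitals.
Hist1h1c (chr13:23738557-23738806, plus strand): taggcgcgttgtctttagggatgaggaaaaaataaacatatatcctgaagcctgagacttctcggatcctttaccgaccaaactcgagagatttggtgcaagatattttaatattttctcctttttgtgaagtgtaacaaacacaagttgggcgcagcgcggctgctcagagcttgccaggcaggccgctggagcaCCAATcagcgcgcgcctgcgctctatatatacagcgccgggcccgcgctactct
Hist1h4d (chr13:23581318-23581567, plus strand): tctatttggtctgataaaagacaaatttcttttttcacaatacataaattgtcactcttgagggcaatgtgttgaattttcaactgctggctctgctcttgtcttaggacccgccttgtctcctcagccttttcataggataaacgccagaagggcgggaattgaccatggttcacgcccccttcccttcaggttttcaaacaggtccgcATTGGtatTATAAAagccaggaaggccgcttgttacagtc
Hist1h4k (chr13:21750554-21750803, minus strand): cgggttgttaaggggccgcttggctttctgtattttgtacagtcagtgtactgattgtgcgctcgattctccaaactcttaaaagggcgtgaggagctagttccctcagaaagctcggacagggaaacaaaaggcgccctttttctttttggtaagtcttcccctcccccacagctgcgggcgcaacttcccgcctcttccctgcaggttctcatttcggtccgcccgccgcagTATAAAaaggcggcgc
The CCAAT of Hist1h4d lies on the opposite strand a few bases before its TATAAA, and Hist1h4k holds a TATAAA without a CCAAT. These matches describe letters and not bound sites.

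The 13 libraries held between 15709549 and 30430104 estimated reads. The 0 h library of the second generation was the shallowest. As a check of the labelled cell type, 14 of 14 oocyte markers were detected, with a summed level of 1352 to 2070 TPM (transcript abundance per length, scaled to a fixed total per library), led by the zona pellucida gene Zp2 at a mean of 714 TPM. Markers of granulosa cells, which surround the oocyte, summed to 773 to 1300 TPM over 14 genes, led by Amhr2 and Inha. The 10 stroma markers summed to 382 to 668 TPM, the 5 endothelial markers to 9.77 to 18.1 TPM, and the 12 blood markers, led by Hbb-bs, to 1370 to 8239 TPM. No marker of any of these lists was at 0 in all libraries. The 30 genes of DNA replication and cell division were detected as well, at 597 to 838 TPM, led by Cdk1 and Tyms. The part of dividing follicular or blood cells in the histone reads was not tested. In pooled cells, fewer cells of a type and less RNA per cell cannot be told apart.

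Of the 67 genes, 14 had at least 10 estimated reads in each of the 13 libraries and are called present here. This is 20.9%, against 65.1% of all 21885 protein-coding genes. How the cDNA was primed is not given, and whether mRNAs without a poly(A) tail were captured as well as others was not tested. The genes just inside this limit were Hist1h2ae, with a lowest value of 11 reads, and Hist1h2bq and Hist1h4k with 17 each, while Hist2h4 with 9 and Hist1h2be with 8 fell just outside. No gene was at 0 in all 13 libraries, but 37 were at 0 in at least 1, and 5 had fewer than 20 reads over all libraries together. The latter were Hist1h2bf, Hist2h2ab, Hist1h2ba, Hist1h2ah and Hist1h4n, and Hist1h2ah and Hist1h4n had reads in a single library each. The present genes held between 55.3% and 76.5% of all reads of the 67 genes. Together the 67 genes took 0.0118% to 0.0246% of the reads of a library.

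The linker histones, which bind the DNA between nucleosomes, were the best represented class, with 5 of 6 genes present. Hist1h1c, which codes for H1.2 and lies at chr13:23738808-23740367 on the plus strand of GRCm38, took the most reads of all 67 genes, at a mean of 24.1 CPM (reads scaled to a fixed library total after TMM normalization, not divided by length). Its level was 17.2 and 35.4 CPM at 0 h of 0.5 Gy in the first and second generation, 26.7 and 27.7 (1 h), 47.1 (2.5 h), 27.2 and 20.5 (4 h) and 16.2 (6 h), and at 0.2 Gy it was 15.7, 22.8, 13.6, 29.9 and 13.3 CPM in the order of time. It was highest at 2.5 h of 0.5 Gy, and the values of both doses overlapped.
Hist1h1b, which codes for H1.5, had a mean of 16.9 CPM. Its level lay between 9.24 and 18.0 CPM in the 8 libraries of 0.5 Gy (median of 11.2), whereas at 0.2 Gy it was 12.1 CPM at 0 h and 29.2, 29.2, 26.7 and 25.4 CPM at 1, 2.5, 4 and 6 h. The 4 later libraries of 0.2 Gy thus lay above all others, and the 0 h library of 0.2 Gy did not. Hist1h1e (H1.4), Hist1h1a (H1.1) and Hist1h1d (H1.3) followed with means of 10.4, 5.63 and 1.95 CPM. The testis-specific H1 gene Hist1h1t had between 0 and 9 reads and was at 0 in 4 libraries.

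The core histone genes were represented by few members. Of H2A, Hist3h2a and Hist1h2ae were present, with means of 6.91 and 4.06 CPM. Of H2B, Hist2h2be, Hist1h2bc, Hist1h2bh and Hist1h2bq were present, at 6.77, 5.82, 4.92 and 2.77 CPM. Of H4, Hist1h4k, Hist4h4 and Hist1h4i were present, at 8.11, 5.22 and 2.81 CPM. None of the 12 H3 genes reached 10 reads in every library, and Hist2h3b was at 0 in 3 libraries. Some genes with many reads missed the limit through single libraries, above all Hist1h2ap (13.2 CPM, 0 reads in 2 libraries) and Hist1h4d (12.7 CPM, lowest value of 5 reads). Hist1h2aa and Hist1h2ba code for TH2A and TH2B, variants known from testis and oocytes. Hist1h2aa had 5 to 46 reads in the 13 libraries, and Hist1h2ba had 8 reads in all, in 3 libraries. The present genes and the spread of their values by generation are shown in the plot of levels by gene.

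**Figure D1:**
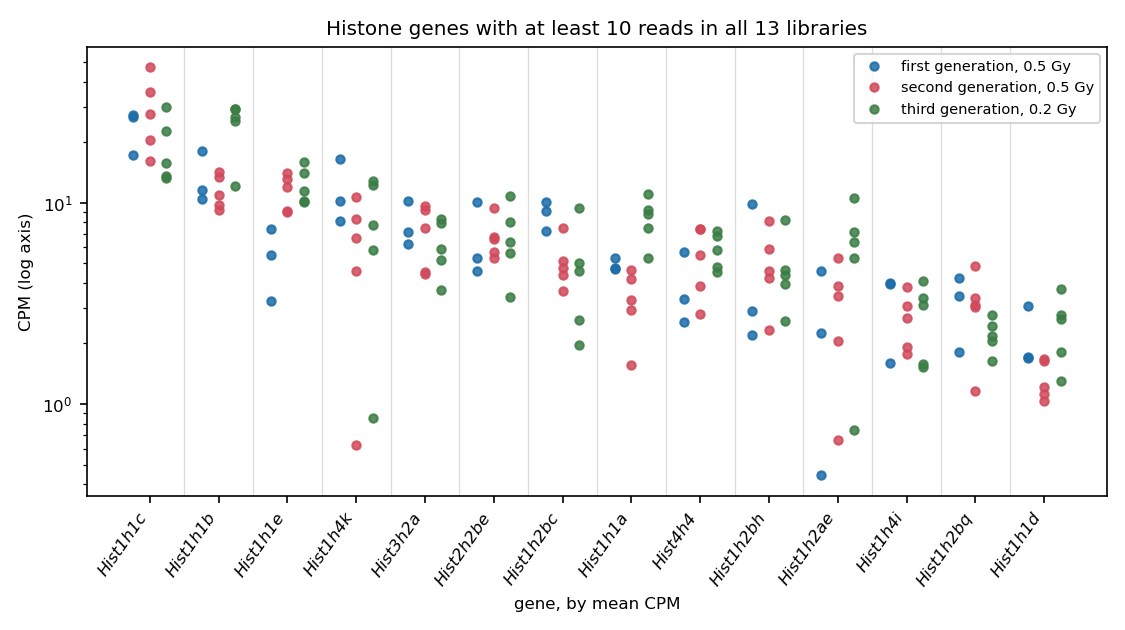
CPM (log axis) of the 14 histone genes with at least 10 reads in every library, 1 point per library, coloured by generation and dose. Hist1h1c is highest on average at 24.1 CPM, and Hist1h4k has 2 libraries, at 0.629 and 0.852 CPM, far below its other values.

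Per transcript length the order of the genes differed. In TPM, which divides by the effective length that salmon gives a transcript, Hist1h4k was highest with a mean of 37.5 TPM, followed by Hist1h2ap (17.3), Hist1h1b (12.6), Hist1h1c (6.51), Hist1h2bq (5.73), Hist1h2af (4.68), Hist2h2aa2 (4.65), Hist1h4d (4.39), Hist1h1a (4.09), Hist1h2an (3.81), Hist1h2ae (3.48) and Hist1h2ak (3.36). The effective length of the annotated Hist1h4k transcript was 63 of 312 bases, whereas that of Hist1h1c was 1046 to 1205 of 1560 bases, so that a read of Hist1h4k counts for more TPM. The position of Hist1h4k in this order therefore depends on its short annotation.

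Genes with long annotated transcripts were present more often. Of the 26 genes whose longest transcript exceeds 700 bases, 13 were present, against 1 of 41 with shorter transcripts, which was Hist1h4k. Of the 17 genes whose annotation runs more than 300 bases past the stem-loop, 7 were present (Hist1h1c, Hist1h1d, Hist1h1e, Hist1h2bh, Hist1h4i, Hist3h2a and Hist4h4), against 1 of 25 whose annotation ends within 300 bases of it. The annotation of Hist1h1c continues for 840 bases after the stem-loop, that of Hist1h2bh for 1214, that of Hist3h2a for 1643 and that of Hist4h4 for 2445. The 26 longer genes shared a median of 28.5% of their 30-base stretches with other genes and the 41 shorter genes 75.0%. A longer transcript also yields more reads at equal abundance. Where along these transcripts the reads fell is not given by the files, and whether they came from RNA that extends past the stem-loop was not tested. The 700-base and 300-base limits were chosen with the values known.

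**Figure D2:**
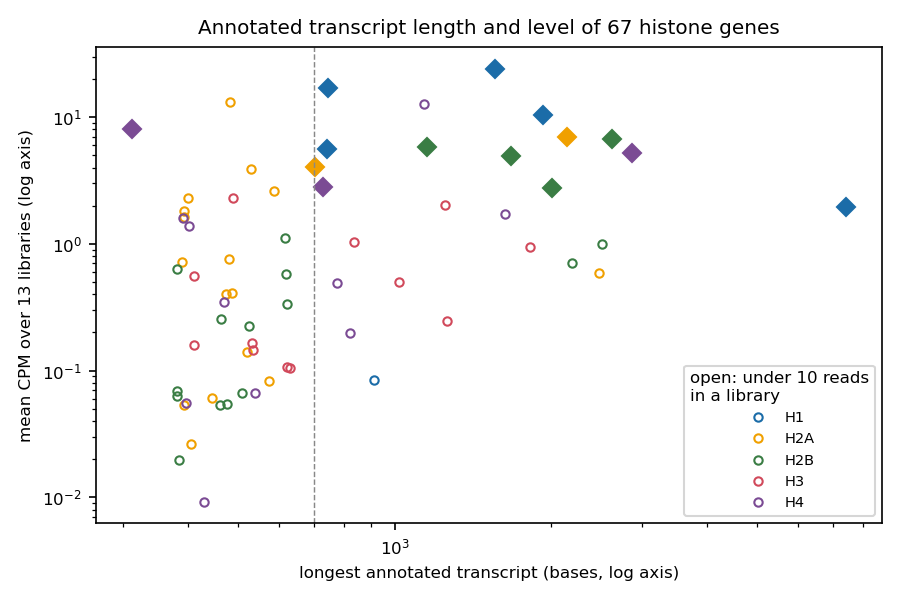
Mean CPM over 13 libraries against the length of the longest annotated transcript for the 67 genes (both axes log), coloured by class, with filled diamonds for the 14 present genes and the dashed line at 700 bases. All but 1 of the filled diamonds lie to the right of the line.

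Reads of near-identical copies cannot be assigned to 1 gene with certainty, and the values of such copies traded places between libraries. Hist2h2aa1 and Hist2h2aa2 both code for H2A, lie side by side, and share all of the 30-base stretches of Hist2h2aa2. Hist2h2aa2 had 112, 0, 151, 0, 334, 130, 264 and 132 reads in the 0.5 Gy libraries (0 h first and second generation, 1 h first and second, 2.5 h, 4 h first and second, 6 h), where Hist2h2aa1 had 8, 32, 11, 99, 13, 10, 25 and 0. At 0.2 Gy from 0 to 6 h Hist2h2aa2 had 0, 0, 205, 1 and 0 reads and Hist2h2aa1 170, 232, 10, 198 and 144. In each library 1 copy held nearly all reads, and the sum of both ran only from 2.19 to 12.8 CPM. Both copies also share sequence with the antisense transcript Gm20633, from which they could not be told apart without strand information, and the strand of the libraries is not given in the sources used here.

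The H2A genes Hist1h2ap and Hist1h2ao share 93.4% and 93.8% of their stretches. Hist1h2ap was at 0 in the 0 h and 4 h libraries of the first generation and had 124 to 638 reads in the other 11, and Hist1h2ao was at 0 in 7 libraries and had at most 85 reads. The pseudogene Hist1h2aj, which is not among the 67 genes and shares H2A sequence, ranged from 0 to 32.0 CPM. At 0.2 Gy it had 47, 49, 20, 336 and 0 reads in the order of time. At 0.5 Gy it had 0 and 101 reads (0 h, first and second generation), 798 and 544 (1 h), 678 (2.5 h), 28 and 481 (4 h) and 642 (6 h). Its reads are not part of the sums given here. A total of 12 H2A genes of the Hist1 cluster form 1 group linked by sharing at least 50% of the stretches of the smaller gene. Links are chained, and the group also holds Hist1h2ac, which shares 13.2% of its stretches with the other histone genes. The sum of this group still ran from 3.42 to 42.9 CPM, a 12.6-fold range, with its lowest values in the 0 h and 4 h libraries of the first generation at 3.42 and 5.42 CPM. At 0.2 Gy it was 38.4, 40.3, 34, 12.8 and 42.9 CPM in the order of time. Of the other groups formed in the same way, the sums of the 14 H2B genes and of the 9 H3 genes of the Hist1 cluster ranged 2.81-fold and 2.71-fold, that of the Hist2h2aa1 and Hist2h2aa2 pair 5.88-fold, that of 9 H4 genes 8.22-fold and that of the 3 Hist2 H3 genes 17.2-fold. The pairs are shown in the stacked plot of near-identical copies, beside Hist1h4d, which shares little sequence.

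**Figure D3:**
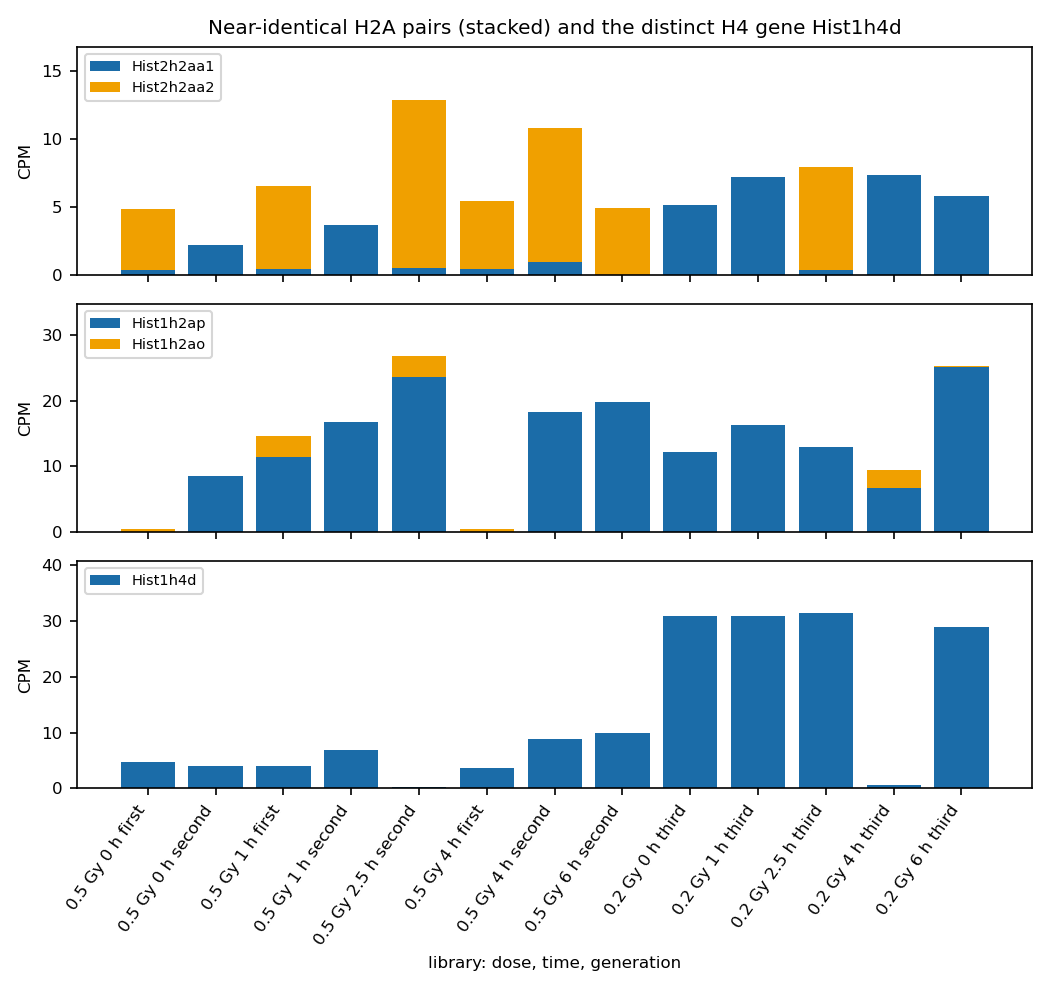
CPM per library, stacked for the near-identical H2A pairs Hist2h2aa1 with Hist2h2aa2 and Hist1h2ap with Hist1h2ao, and for the H4 gene Hist1h4d alone. The copy that holds the reads of the upper pair changes between libraries, and Hist1h4d stands near 30 CPM in 4 of the 5 libraries of 0.2 Gy and under 1 CPM at 2.5 h of 0.5 Gy and 4 h of 0.2 Gy.

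Summed over each class, H1 lay between 44.4 and 79.2 CPM, H2A between 18.4 and 56.7, H2B between 19.9 and 31.4, H3 between 3.18 and 11.6, and H4 between 10.6 and 58.5 CPM. The total of all 67 genes was 147 and 130 CPM at 0 h of 0.5 Gy in the first and second generation, 150 and 165 CPM (1 h), 181 (2.5 h), 119 and 168 (4 h) and 157 (6 h). At 0.2 Gy it was 195, 226, 195, 140 and 202 CPM in the order of time. The totals of 0.5 Gy before and after 2.5 h overlapped, and 4 of the 5 libraries of 0.2 Gy lay above all 8 of 0.5 Gy, the exception being 4 h. The H3 sum of the first generation was 3.18, 6.33 and 3.60 CPM at 0, 1 and 4 h, below all libraries of the second generation, where it was 8.40 to 11.6 CPM.

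**Figure D4:**
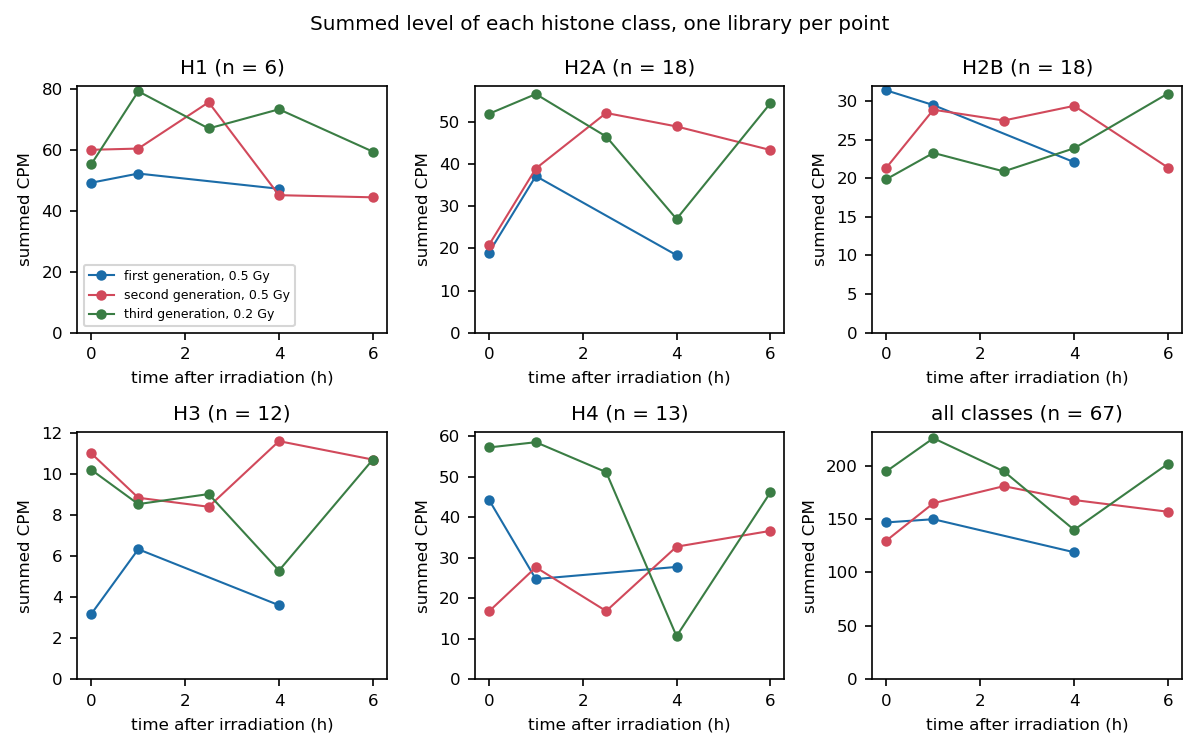
Summed CPM of each histone class and of all 67 genes against time after irradiation, 1 point per library, with lines joining the libraries of 1 generation. The H4 sum is lowest at 4 h of 0.2 Gy at 10.6 CPM, and the H1 sum of the second generation peaks at 2.5 h at 75.6 CPM.

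To ask whether the genes changed after 0.5 Gy, each later time was set against 0 h in a fit to the 8 libraries. A gene was called where the adjusted p was below 0.05 with a log2 fold change above 1 in size. The fit held no term for generation. The 2.5 h and 6 h libraries are of the second generation alone and 0 h is of both, so that generation enters these fold changes. edgeR's quasi-likelihood test called none of the 49 histone genes tested at 1, 2.5, 4 or 6 h, and none of all 28468 genes tested (0% at each time). At an unadjusted p under 0.05 there were 3 histone genes at 1 h (6.12%, against 3.98% of all genes), 9 after 2.5 h (18.4% against 5.59%), 1 after 4 h (2.04% against 5.82%) and 6 after 6 h (12.2% against 5.94%). The median log2 fold change of the histone genes was 0.22, -0.28, 0.12 and 0.22, against 0.01, -0.04, 0.00 and 0.00 for all genes. Leaving out single libraries turned the sign of the first 3 of these medians, to -0.18 at 1 h without 1 h of the second generation, to 0.09 at 2.5 h without 0 h of the first and to -0.41 at 4 h without 4 h of the second. With the genes without a read in 1 of the groups set to the limit that 3 reads over the group allow, the median at 2.5 h was 0 and the other medians stayed at 0.22, 0.12 and 0.22. DESeq2 called 3 histone genes after 2.5 h, 1 after 4 h, 1 after 6 h and none after 1 h, where it called 0.379%, 0.485%, 0.499% and 0.112% of all genes. With the beta prior, which shrinks fold changes, DESeq2 called 1 histone gene at 4 h and 1 at 6 h and none at 1 or 2.5 h, beside 0.436%, 0.506%, 0.0773% and 0.309% of all genes.

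Hist1h2ak codes for an H2A (chr13:21753435-21753827, minus strand) and is named because the study lists it among its regulated genes, a choice made on these same samples and no independent evidence. It had 8 and 2 reads at 0 h in the first and second generation, 53 and 65 (1 h), 0 (2.5 h), 61 and 87 (4 h) and 129 (6 h). Both 0 h libraries thus lay below those of 1, 4 and 6 h, and 2.5 h was lowest of all. The log2 fold change against 0 h was 3.25 ± 0.69 (SE, 1 h), 3.57 ± 0.69 (4 h) and 4.36 ± 0.76 (6 h), with adjusted p of 1, 0.522 and 0.368 in edgeR's quasi-likelihood test. At 2.5 h it was at least 2.13-fold lower, taking the limit that a count of 0 allows. With DESeq2 it was called in both of the later comparisons, at an adjusted p of 0.00664 (4 h) and 0.0038 (6 h). At 0.2 Gy it had 24, 66, 48, 2 and 26 reads in the order of time, where the 0 h library lay within the range of the others. It shares 75.0% of its stretches with other genes, and the sum of the group of 12 H2A genes had a log2 fold change of 2.03 ± 0.88 at 6 h (adjusted p = 0.825 in edgeR's quasi-likelihood test).

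Hist1h4k, an H4 gene of which 86.9% of the stretches are shared (chr13:21750194-21750505, minus strand), is the other of the 67 genes in that list. It had 413 and 67 reads at 0 h, 255 and 181 (1 h), 17 (2.5 h), 210 and 223 (4 h) and 287 (6 h). The 0 h libraries of both generations lay at 16.6 and 4.58 CPM, a difference larger than that between either of them and the libraries of 1, 4 and 6 h, and 2.5 h was below all others. Its log2 fold change at 2.5 h was -4.02 ± 0.93 (adjusted p = 0.779, edgeR), and DESeq2 called it (adjusted p = 0.000393). The sum of the group of 9 H4 genes that holds Hist1h4k had a log2 fold change of -1.51 ± 0.68 at 2.5 h. Hist1h4d, an H4 gene of which 14.9% of the stretches are shared (chr13:23581598-23582735, plus strand), had 117 and 58 reads at 0 h, 99 and 187 (1 h), 5 (2.5 h), 96 and 237 (4 h) and 265 (6 h). Its log2 fold change at 2.5 h was -4.47 ± 0.95 (adjusted p = 0.63, edgeR), and DESeq2 called it as well (adjusted p = 0.00149). Hist1h4f had no read at 2.5 h and 246 at 0 h, at least 52.4-fold lower, but 235 of these were in the first generation alone. The 2.5 h and 6 h time points are single libraries, so these values rest on 1 library each.

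Of the other genes with the smallest p, Hist1h2ag had no read at 0 h, 52 at 1 h (at least 13.4-fold higher) and 14 at 6 h (at least 7.58-fold higher). Hist1h2ae stood at 0.443 and 2.05 CPM at 0 h and at 4.57 and 3.43 CPM at 1 h, a log2 fold change of 1.75 ± 0.76 with an adjusted p of 1 in edgeR, and its groups did not overlap. This value was 3.20 without 0 h of the second generation and 0.99 without 0 h of the first. Hist1h3f had few reads, 9 and 4 at 0 h and 2 and 0 at 1 h in the first and second generation. Its log2 fold change at 1 h was -2.85 ± 1.36. With single libraries left out this value ran from -5.97 to -1.92, the latter without 1 h of the second generation. At 4 h, Hist1h3e, Hist4h4 and Hist1h2ac had log2 fold changes of -1.52 ± 0.71, 1.14 ± 0.54 and -1.68 ± 0.87, and that of Hist1h2ac was -0.63 without 0 h of the first generation. At 6 h, Hist2h2aa1 and Hist1h2an were without a read, at least 8.21-fold and 6.57-fold lower than at 0 h, and both share reads with copies. The fold changes in all comparisons are shown in the plot of log2 fold changes.

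**Figure D5:**
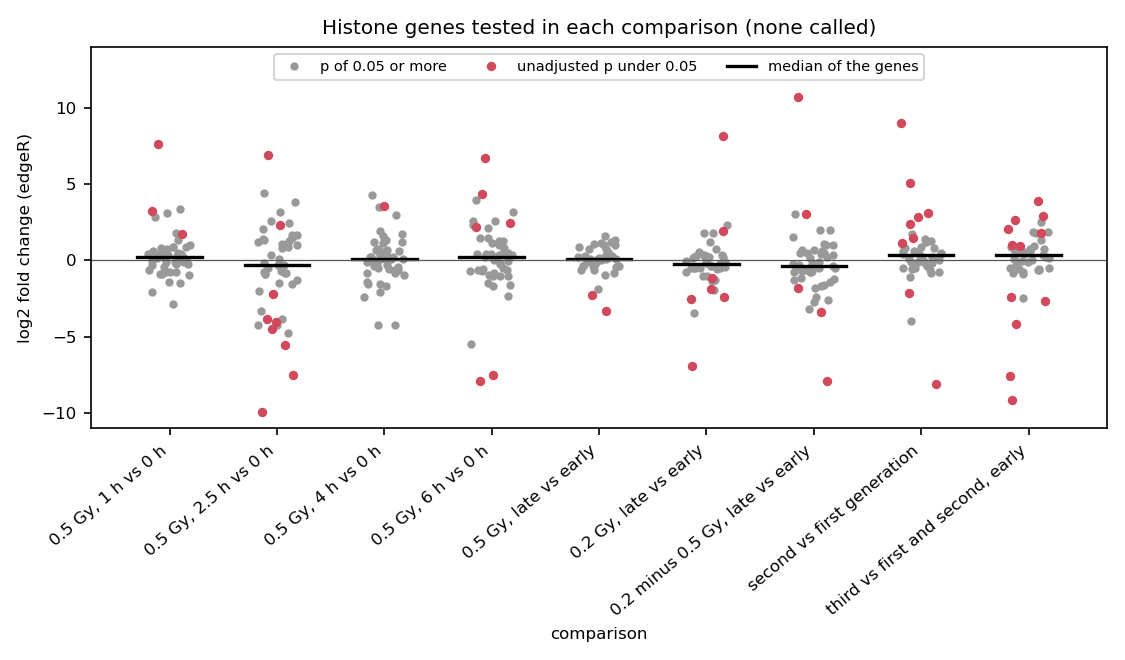
Log2 fold change of each histone gene tested by edgeR in 9 comparisons, with genes at an unadjusted p under 0.05 in red and the median as a bar. The medians lie between -0.34 and 0.38 and no gene was called, and the farthest points are genes without a read in 1 group, whose fitted value is no bound.

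To compare late with early libraries of 0.5 Gy, those of 2.5, 4 and 6 h were set against those of 0 and 1 h. This fit held no term for generation either, and the generations are not balanced between late and early. edgeR's quasi-likelihood test called none of the 38 histone genes tested, and 29 of 22588 genes in all (0.128%), and 2 histone genes (5.26%, against 9.06% of all) had an unadjusted p under 0.05. DESeq2 called none of them and 0.899% of all genes. The median log2 fold change was 0.10 for the histone genes and -0.02 for all genes, and 23 of the 38 were above 0. The median of the histone genes was -0.09 without 2.5 h. The genes with the smallest p were Hist1h2an (-3.34 ± 1.02, adjusted p = 0.37), Hist1h4f (-2.30 ± 0.96, adjusted p = 0.505), Hist4h4 (0.78 ± 0.36, adjusted p = 0.559) and Hist1h2aa (1.04 ± 0.49, adjusted p = 0.56). Late reads of Hist1h2an were found in 4 h of the second generation alone, so that its value rests on that library. The value of Hist1h4f was -1.51 without 0 h of the first generation. Hist4h4, an H4 gene with 13.7% shared stretches, stood at 3.34, 2.80, 2.57 and 5.49 CPM early and 7.37, 5.69, 7.41 and 3.88 CPM late. Early and late values of Hist4h4 overlapped through 1 h of the second generation and 6 h.

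At 0.2 Gy, late libraries (4 and 6 h) were set against early ones (0 and 1 h). The fit held the 11 libraries of 0, 1, 4 and 6 h of both doses. With 1 library per time at 0.2 Gy, its SE and p-values draw on the spread of both doses. None of 47 histone genes was called by edgeR's quasi-likelihood test, against 13 of 28162 genes in all (0.0462%), and 7 (14.9%, against 7.29%) had an unadjusted p under 0.05. DESeq2 also called none of them, and 0.479% of all genes. The median log2 fold change was -0.26, against -0.03 for all genes, and it was -0.83 without the 6 h library and 0 without the 4 h library. The smallest p belonged to Hist1h3i, which had 38 reads early and none late (at least 11-fold lower), Hist1h4k (-1.89 ± 0.72, adjusted p = 0.646), Hist2h2bb (-2.40 ± 0.98, adjusted p = 0.654) and Hist1h2ao, which had no read early and 74 late (at least 28.3-fold higher), 73 of them at 4 h. Without 6 h the log2 fold change was -3.84 for Hist1h4k and -4.65 for Hist2h2bb, and without 4 h it was -1.10 and -1.55. Hist2h2bb shares all of its stretches with the antisense transcript Gm20628. Hist1h4k had 429 and 394 reads at 0 and 1 h, 209 (2.5 h), 23 (4 h) and 145 (6 h).

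The difference between the doses in late against early was tested in the same fit. No histone gene of 47 was called by edgeR's quasi-likelihood test, and 9 of 28162 genes in all were (0.032%), and 5 histone genes (10.6%, against 8.14%) had an unadjusted p under 0.05. DESeq2 called none of them and 0.405% of all genes. The smallest p belonged to Hist2h2bb (-3.36 ± 1.21, adjusted p = 0.56), Hist1h3e (3.03 ± 1.10), Hist1h4i (-1.78 ± 0.66) and Hist1h2ao, the last of which was at 0 in both early libraries of 0.2 Gy, all at an adjusted p of 0.564 except Hist2h2bb. These values are the log2 fold change at 0.2 Gy minus that at 0.5 Gy. Hist2h2bb shares all of its stretches with the antisense transcript Gm20628, and Hist1h3e shares 84.9% with other genes. The sum of the 9 H3 genes of the Hist1 cluster, Hist1h3e among them, stood at -0.07 ± 0.68. Leaving out single libraries moved Hist2h2bb from -5.62 (without 6 h of 0.2 Gy) to -2.51 (without 6 h of 0.5 Gy) and Hist1h3e from 2.16 (without 0 h of 0.2 Gy) to 5.97 (without 1 h of 0.2 Gy). No histone gene was shown to respond differently to the doses, and dose was not separable from generation here.

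The libraries of 2.5 h of 0.5 Gy and 4 h of 0.2 Gy were low together for some of the genes. This pattern was chosen after the values were seen and was not tested. Of 41 histone genes with a mean of at least 10 reads, 5 (12.2%) had both libraries below the other 11, against 270 of 23815 genes (1.13%). These were Hist1h4k, Hist1h4d, Hist1h4m, Hist1h2ak and Hist1h3d, which are 3 H4 genes, 1 H2A gene and 1 H3 gene. The pseudogene Hist1h2aj, which shares H2A sequence, held 678 and 336 reads in these libraries, and its part in the low value of Hist1h2ak was not tested. Hist1h4d had 5 and 17 reads in these libraries and 58 to 1029 in the other 11, and Hist1h4k had 17 and 23 against 67 to 429. Hist1h1c, in contrast, was at 47.1 and 29.9 CPM in them, 2 of its 3 highest values. Hist2h2be was likewise at 9.44 and 10.8 CPM, 2 of its 3 highest values. Both libraries had ordinary depth, at 26694892 and 27067283 estimated reads. Granulosa markers summed to 1300 and 1125 TPM in them and oocyte markers to 1811 and 2070 TPM, which were the highest of 13 for granulosa markers at 2.5 h of 0.5 Gy and for oocyte markers at 4 h of 0.2 Gy. The part of these in the pattern was not tested. Without both libraries, 16 instead of 14 genes were present.

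Between the generations, the second was compared with the first in the 6 libraries of 0, 1 and 4 h of 0.5 Gy, with time as a covariate. edgeR's quasi-likelihood test called none of 42 histone genes and 8 of 24665 genes in all (0.0324%), and 9 histone genes (21.4%, against 9.88%) had an unadjusted p under 0.05, 7 of them higher in the second generation. The median log2 fold change was 0.38, against -0.01 for all genes. DESeq2 called 3 of them, Hist2h3b and Hist2h3c1 as higher and Hist1h4f as lower, beside 1.12% of all genes. Hist2h3b, an H3 gene, had 0, 0 and 0 reads in the first generation at 0, 1 and 4 h and 6, 100 and 107 in the second, at least 78.1-fold higher (adjusted p = 0.141 in edgeR). It shares all of its stretches with other genes, including the antisense transcript Gm20628, but the sum of Hist2h3b, Hist2h3c1 and Hist2h3c2 had a log2 fold change of 3.06 ± 0.47 as well (adjusted p = 0.123 in edgeR). Hist1h2ao had 101 reads in the first generation and none in the second, at least 30.6-fold lower, opposite to its near copy Hist1h2ap. Hist1h2br (2.84 ± 0.61, adjusted p = 0.295) and Hist2h2aa1 (2.37 ± 0.62, adjusted p = 0.353) followed, and both share reads with copies.

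The third generation, of the 0.2 Gy series, was compared with the first and second in the early libraries of 0 and 1 h. The 0 h libraries among them were taken before irradiation, so that no dose had been given in these. Of 47 histone genes none was called by edgeR's quasi-likelihood test, against 34 of 28162 genes in all (0.121%), while 12 (25.5%, against 14.9%) had an unadjusted p under 0.05, 7 higher and 5 lower. The median log2 fold change was 0.37, against 0.04 for all genes, and 0.11 without 1 h of 0.2 Gy. DESeq2 called 2 of them, Hist1h2an as higher and Hist1h3e as lower, and 1.45% of all genes. Hist1h4d stood at 30.9 and 30.9 CPM in the third generation, against 4.71, 3.96, 3.97 and 6.89 CPM in the others, without overlap, and its log2 fold change was 2.62 ± 0.82 (adjusted p = 0.216 in edgeR). Outside the early libraries it was at 31.3 and 28.8 CPM at 2.5 and 6 h of 0.2 Gy but at 0.629 CPM at 4 h. Hist1h2an (2.94 ± 0.90, adjusted p = 0.213) was higher in the third generation and Hist1h3e (-2.65 ± 0.83, adjusted p = 0.216) lower. The value of Hist1h3e was -5.59 without 1 h of 0.2 Gy and -1.79 without 0 h of 0.2 Gy. The sum of the 9 H3 genes of the Hist1 cluster, Hist1h3e among them, was at -0.25 ± 0.47. Hist2h2aa2 had 263 reads early at 0.5 Gy and none at 0.2 Gy (at least 54.8-fold lower), where its copy Hist2h2aa1 held the reads.

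Replacement histones held far more of the measured TPM. Their mRNAs as a rule carry a poly(A) tail, which replication-dependent histone mRNAs as a rule lack. How the cDNA was primed is not given. AATAAA, a common poly(A) signal, lay near the annotated end of the present genes Hist1h1c, Hist1h2ae, Hist2h2be, Hist3h2a and Hist4h4 and of 1 transcript of Hist1h2bq. The other present genes did not hold it there, and 39.8% of protein-coding transcripts of other genes did. Whether the RNA measured carried a tail was not tested. The part of unequal capture in these values was not tested. The 14 replacement histone genes summed to 1831 to 2856 TPM and the 67 clustered genes to 91.3 to 209 TPM, a ratio of 8.75 to 24.1 with a median of 15.5. H2afz, which codes for H2A.Z, had a mean of 971 TPM, H3f3b and H3f3a, which code for H3.3, had 710 and 230 TPM, and the oocyte linker histone H1foo had 128 TPM. Of 12 replacement histone genes tested, none was called by edgeR in any of the 9 comparisons. H2afj, an H2A gene outside the clusters, was named after its values were seen. It had the smallest p of this list at each time against 0 h, with a log2 fold change of 2.40 ± 0.45 at 4 h (adjusted p = 0.477 in edgeR's quasi-likelihood test).

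All 16 genes of the list for histone mRNA processing had at least 10 reads in every library, the lowest value being 110 reads of Lsm11. Slbp had a mean of 72.3 TPM and Lsm10 of 47.4 TPM, whereas Lsm11, the partner of Lsm10 in the U7 complex, had 0.51 TPM. Npat, which activates histone gene transcription, had 3.01 TPM, Casp8ap2, which is needed for histone expression in S phase, 28.9 TPM, and Zfp473, a U7-associated zinc finger protein, 4.56 TPM. The highest gene of this list was Cpsf3, the endonuclease that cuts the end, at 155 TPM. None of the 16 genes of this list, the 20 histone chaperones (led by Npm1 at 457, Nap1l4 at 283 and Atrx at 82.9 TPM) or the 30 replication genes (led by Cdk1 at 159, Tyms at 69.6 and Gins2 at 60.1 TPM) was called by edgeR in any of the 9 comparisons. In late against early at 0.5 Gy their medians of the log2 fold change were -0.03, 0.04 and -0.14, against -0.02 for all genes. Slbp was at -0.52 ± 0.22 in the third generation against the others (adjusted p = 0.298 in edgeR) and at 0.42 ± 0.18 in the second against the first (adjusted p = 0.502).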

How the data were processed

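RNA of 13 libraries of mouse oocytes was quantified by the authors with salmon (transcriptome of GRCm38), and the deposited transcript tables hold estimated counts (expected counts) and TPM. The labels give reads of 30 bases, as paired-end in one field and single-end in another. The deposited table of normalized counts merges replicates, and the deposited log2 fold changes with p-values are the authors' own comparisons with 0 h by DESeq2 1.24.0, and neither was used.
Estimated counts were summed per gene with GENCODE M21 and rounded. Transcripts without a gene (402) held at most 0.495% of the reads. Libraries held 15709549 to 30430104 estimated reads. Genes were filtered with filterByExpr, normalized with TMM and tested with edgeR 4.0.16 (quasi-likelihood, limma 3.58.1, R 4.3.3) over all genes, with Benjamini-Hochberg adjustment, and a gene was called where the adjusted p was below 0.05 with a log2 fold change above 1 in size. DESeq2 1.42.0, no filter, other size factors, summed near copies, limma on log2 TPM (pseudocounts 1 and 0.1) and leaving out libraries were alternatives. Tables and plots were made with Python 3.11.15, pandas 2.3.3, numpy 2.4.6 and matplotlib 3.10.9, and the fits were tested on simulated data. Near copies are genes of a class linked where they share at least 50% of the 30-base stretches of the smaller gene. Groups are joined through such links, so genes of a group may share less with each other. Folds against a group without reads use 3 reads over that group, and cover counting error only.
At 0, 1 and 4 h of 0.5 Gy, replicate 1 is the first and replicate 2 the second generation. The single libraries of 2.5 and 6 h carry number 1 but belong to the second, so the block used the generation. Deviations of same-numbered libraries correlated at 0.182 (0 and 1 h), 0.1003 (0 and 4 h) and 0.166 (1 and 4 h) over 23815 genes, so the numbers were taken to pair the samples, and a fit with this block was run.
Genes were named by rule: the 12 with the highest mean TPM, the 4 with the smallest p in each comparison, those the study lists as regulated, and the leading 3 of each gene list with chosen processing factors. The members and lists were chosen with earlier results of these data known.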

Additional observations from a re-analysis of the deposited data

Results flagged for a closer look

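The summed level of the H1 genes was 75.6 CPM at 2.5 h of 0.5 Gy, apart from the other 3 late libraries of this dose, which lay at 47.2, 45.1 and 44.4 CPM. It was the only one of 12 sets of 4 libraries, formed from the class sums and the total, in which 1 library stood apart by Dixon's limit, and chance flags about 1 in 20 groups. Hist1h1c, at 47.1 CPM, accounted for the largest share of this sum.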

How the results depend on the processing

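No histone gene was called by edgeR in the 9 comparisons. With the replicate block, the count stayed at 0 in the time points and in late against early of 0.5 Gy, and the block changed no other call. DESeq2 called 3 at 2.5 h, 1 at 4 h, 1 at 6 h, 3 between the second and first generation and 2 between the third and the others, and with the beta prior 1 at 4 h and 1 at 6 h. Without a filter, 1 was called at 6 h and 8 between the second and first generation. The share of all genes called is not given for this setting or for the fits with libraries left out, so these counts are not set against it. Leaving out each library gave 0 to 1 calls at 0.2 Gy late against early and 0 to 1 in the difference between doses (1 without 6 h of 0.2 Gy), 1 to 2 between the second and first generation (whichever library was left out), 0 to 1 between the third and the others (1 without 4 h or 6 h of 0.2 Gy), and 0 to 0 elsewhere. With at least 3 or 30 reads in place of 10, 25 or 9 genes were present, and 16 without 2.5 h of 0.5 Gy and 4 h of 0.2 Gy, an alternative chosen after seeing the data. With the beta prior the log2 fold change turned to 0.17 for Hist1h2ak at 2.5 h and to -0.0867 for Hist1h4k at 6 h. Hist1h4k ran from -0.94 to 0.92 at 1 h, from -0.97 to 0.89 at 4 h and from -0.58 to 1.28 at 6 h when single libraries were left out, turning without the 0 h library of the first generation (0.92 at 1 h, 0.89 at 4 h) or the second (-0.58 at 6 h). The cause was not tested. Single libraries at 2.5 and 6 h, near copies that share reads, and few reads per gene limit these values.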
